A study of Mus musculus with 14 samples.

Results

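The imprinted growth genes examined here were Igf2, H19, Dlk1, Meg3, Mest, Peg3, Plagl1, Cdkn1c, Grb10 and Gpc3. They were chosen by name, and a probe was taken as a member when the RefSeq accession it carries belongs to one of these symbols. This gave 18 probes for 9 of the 10 genes, among 19751 named genes on the arrays. H19 was not matched and was not analysed here, and 13374 of the 39429 probes were left without a gene name. Gpc3 lies on the X chromosome and is not known as an imprinted gene in mouse; it belongs to the set as a growth regulator that is high in the fetal liver.

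Liver RNA came from male and female CD-1 mice, an outbred strain, with no treatment. The 6 groups were male liver at 3 wk (M3), 4 wk (M4) and 8 wk (M8) and female liver at 3 wk (F3), 4 wk (F4) and 8 wk (F8), so that the mice were prepubertal at 3 and 4 wk and young adults at 8 wk. Each group was represented by 2 RNA pools, of 5 mice each at 3 wk and of 6 mice each at 4 and 8 wk. The pools were compared in 7 competitive hybridizations on Agilent whole genome arrays, M3/F3, M4/F4 and M8/F8 for sex and, for age, M8/M3 and M8/M4 in males and F8/F3 and F8/F4 in females, with 2 arrays each and the dyes exchanged between them. A value below is the log2 of the deposited ratio, turned so that it is positive when the gene is higher in male liver or in 8 wk liver. The same pools recur on several arrays, so the comparisons are not independent of each other.

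Imprinted genes are expressed from only the maternal or only the paternal copy, and several of them act on growth before and shortly after birth. As a rule of thumb, genes active on the paternal copy (Igf2, Dlk1, Mest, Peg3, Plagl1) favour growth and genes active on the maternal copy (H19, Cdkn1c, Grb10 in most tissues) restrain it. Many are abundant in fetal liver and fall after birth as organ growth slows. The arrays measure total RNA of a gene, so they do not show which parental copy it came from.

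A gene is called changed when limma's test gives an adjusted p below 0.05, the change exceeds 1.5-fold, and the probe was well above background on both arrays in 1 or both of the groups compared. The adjustment, by Benjamini and Hochberg, took in all 39429 probes and all 7 comparisons together. Errors given as SE are those of this fit. Each pool mixes several mice, so p-values reflect the spread between 2 arrays per comparison and not the spread between single animals. A bulk ratio also cannot tell fewer cells of a type from less RNA per cell.

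The arrays passed the check of the labels: the Y-linked genes Ddx3y and Eif2s3y were higher in the male channel and Xist was higher in the female channel on all 6 arrays that compared the sexes. From 55.2% to 77.2% of spots (median 66.5%) were well above background per channel, and 0 spots were saturated. All 9 hepatocyte markers looked at, among them Alb, Ttr and Apoa1, were well above background in every group. For the age comparisons, M8/M3 was scanned on the same day as the 3 sex comparisons and the other 3 on another day.

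The sequences upstream of Gpc3, Mest and Plagl1, the members that were lower at 8 wk in all 4 age comparisons, are shown first. They are the 250 bases before the RefSeq start site, 5′ to 3′, from RefSeq annotation of build GRCm38.p6. No peak or methylation data accompany the arrays, so the sequences are given only to show what these starts look like. Capitals mark the letters CCAAT and GGGCGG (a GC box, the kind of sequence bound by SP1), on either strand. The second of the 3 Mest starts is shown.
Gpc3, chrX:52613975-52614224, - strand: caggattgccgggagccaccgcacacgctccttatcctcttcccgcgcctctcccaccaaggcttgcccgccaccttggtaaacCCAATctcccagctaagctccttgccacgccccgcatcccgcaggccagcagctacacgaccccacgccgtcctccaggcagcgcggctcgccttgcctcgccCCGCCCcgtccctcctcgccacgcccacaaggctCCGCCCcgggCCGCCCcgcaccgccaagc
Mest, chr6:30737800-30738049, + strand: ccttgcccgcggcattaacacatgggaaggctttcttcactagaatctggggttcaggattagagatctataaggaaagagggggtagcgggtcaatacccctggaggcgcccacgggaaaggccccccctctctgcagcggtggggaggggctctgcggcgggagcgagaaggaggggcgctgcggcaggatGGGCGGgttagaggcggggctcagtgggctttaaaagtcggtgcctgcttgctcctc
Plagl1, chr10:13090582-13090831, + strand: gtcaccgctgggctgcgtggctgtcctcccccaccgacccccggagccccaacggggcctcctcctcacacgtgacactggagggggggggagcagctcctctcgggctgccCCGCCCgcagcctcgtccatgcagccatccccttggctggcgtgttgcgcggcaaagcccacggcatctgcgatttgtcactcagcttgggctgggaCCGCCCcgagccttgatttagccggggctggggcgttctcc
GGGCGG occurred 3 times upstream of Gpc3, 1 time upstream of Mest and 2 times upstream of Plagl1, and it was found in 32.7% of all 32851 upstream windows of this length. CCAAT was found 1 time, upstream of Gpc3, against 33.8% of all windows. These windows held 25, 14 and 19 CG dinucleotides for Gpc3, Mest and Plagl1, where the median window held 6. None of the 3 held TATAAA, which 12.4% of all windows held. The letters GGGGCCCC, the sequence the PLAGL1 protein is known to bind, were in none of these 3 windows. Among the 15 windows of the 8 members that had one, they occurred once, upstream of Peg3, and 0.889% of all windows held them. Dlk1 was near background and was called lower at 8 than at 3 wk in both sexes, but it entered that test only through the 3 wk group. Its window held 8 CG dinucleotides, 0 GGGCGG and 0 CCAAT. None of these matches shows that a factor binds there.

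Meg3, by contrast, is a long noncoding RNA, and the window upstream of its first start holds TATAAA on each strand. The window is shown because Meg3 was one of the members higher in female liver at 8 wk, a call that was lost under 14 of the 23 alternatives run. Capitals mark CCAAT and TATAAA, the latter whose 2 matches overlap.
Meg3, chr12:109540746-109540995, + strand: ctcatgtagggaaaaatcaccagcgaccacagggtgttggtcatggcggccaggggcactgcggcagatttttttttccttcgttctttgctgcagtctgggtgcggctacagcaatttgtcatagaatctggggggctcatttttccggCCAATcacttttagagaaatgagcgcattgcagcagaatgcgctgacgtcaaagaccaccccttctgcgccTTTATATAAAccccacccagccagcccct
The 60 bases of the array probe that represents Meg3, copied from the study's probe list with no part in capitals, show what was hybridized.
Meg3 probe A_51_P455997: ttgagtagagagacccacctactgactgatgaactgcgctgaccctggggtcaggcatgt

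Between 3 and 8 wk most of the members went down. In male liver 7 members were well above background at both ages on both arrays, and 5 of them (Gpc3, Mest, Plagl1, Cdkn1c and Peg3) were lower at 8 wk, in a comparison where 8.88% of 13456 named genes measured at both ages were lower. The Peg3 call was lost with the replicate number as a block. In female liver 5 of 8 such members (Gpc3, Mest, Plagl1, Grb10 and Cdkn1c) were lower, against 6.01% of 14173 genes. Their median log2 ratio was -1.57 for males and -1.20 for females, while the median of all such genes was 0.03 and 0.02. Igf2 and Dlk1 in males and Dlk1 in females were called lower as well, but they entered the test only through the 3 wk group, which favours a lower value at 8 wk. With them the numbers called were 7 of 9 in males and 6 of 9 in females, where 10% of 14439 and 6.67% of 14732 genes were lower, and these larger counts support nothing further.

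From 4 to 8 wk fewer members were called. In M8/M4, 4 of 7 members measured at both ages were lower (Mest, Gpc3, Cdkn1c and Plagl1), against 5.82% of genes, and in F8/F4, 3 of 7 were lower (Mest, Gpc3 and Plagl1), against 3.48%. With Dlk1, which entered through the 8 wk group and was not called, 8 members were tested in each, where 6.39% and 3.73% of genes were lower. No member was called higher at 8 wk in any of these 4 comparisons, where 7.81% (M8/M3) and 5.08% (F8/F3) of genes were from 3 wk on, and 4.44% (M8/M4) and 2.29% (F8/F4) from 4 wk on. These members are not independent of each other, since the same pools gave all values.

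Between the sexes, calls were made at 8 wk. Of 7 tested members in M8/F8, Meg3 and Cdkn1c were higher in female liver, where 3.74% of genes were, and Grb10 was higher in male liver, where 2.66% were. The Meg3 call was lost with the replicate number as a block. Mest and Gpc3 also had an unadjusted p below 0.05, which makes 5 of 7. The share of all genes at that looser limit was not counted, so nothing is drawn from this number. Gpc3 missed the call narrowly, at -0.58 ± 0.14 (limma adjusted p = 0.036) or 1.498-fold. At 3 wk 0 of 8 tested members were called, with 0 at an unadjusted p below 0.05, in a comparison where 0.337% of genes were higher in female and 0.18% higher in male liver. At 4 wk 0 of 7 were called, where 0.971% of genes were called higher in female and 0.612% higher in male liver. There 3 members had an unadjusted p below 0.05 (Meg3, Cdkn1c and Gpc3), again without a share of all genes to set beside them. An average weighted by the deposited errors, tested at an unadjusted p of 0.0001, called 0 members at 3 wk, 1 at 4 wk (Meg3) and 2 at 8 wk. How many of all genes this average called was not counted.

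**Figure D1:**
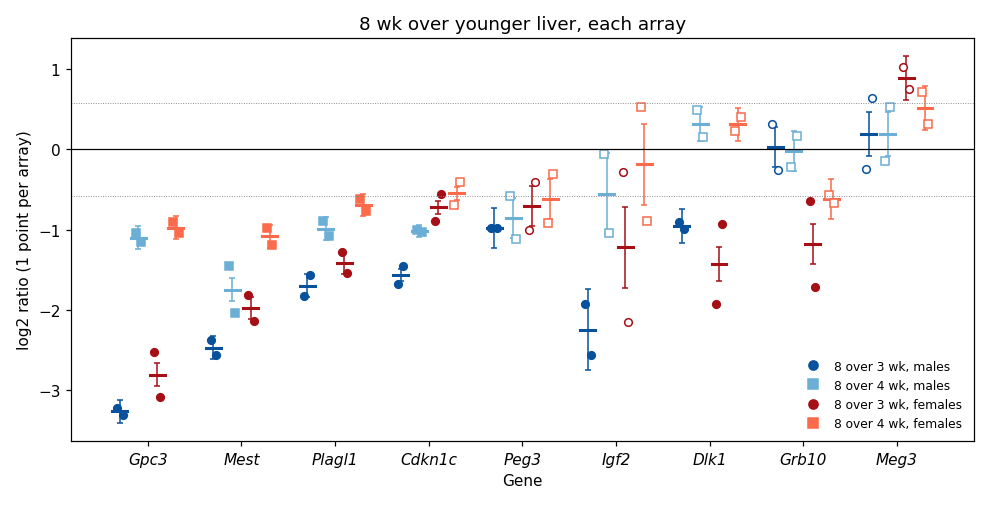
Log2 ratio of 8 wk over younger liver for the 9 members, with 1 point per array, a bar at the fitted mean and whiskers of 1 SE. Filled points belong to comparisons that passed the test and the 1.5-fold limit (dotted lines). Gpc3, Mest and Plagl1 sit below 0 in all 4 comparisons, and Gpc3 goes lowest, at -3.27 in males.

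Gpc3, a cell surface proteoglycan that restrains growth and is used as a marker of fetal liver and of liver cancer, fell the most. The 2 arrays gave -3.23 and -3.31 in M8/M3, and -2.53 and -3.09 in F8/F3. All 4 values were far below 0, and the female arrays lay above both male arrays. The fitted change was -3.27 ± 0.14 (SE, n = 2 arrays) in males, a 9.62-fold decrease with a limma adjusted p of 0.0001, and -2.81 ± 0.14 (SE, n = 2 arrays) in females, a 7.01-fold decrease with an adjusted p of 0.00015. From 4 to 8 wk the arrays gave -1.05 and -1.15 in males and -0.91 and -1.04 in females, all below 0 and nearer to it. The decrease was 2.14-fold in males (limma adjusted p = 0.0032) and 1.97-fold in females (adjusted p = 0.0051).

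The difference between the 8/3 wk and 8/4 wk comparisons gives the change from 3 to 4 wk through the shared 8 wk pools. For Gpc3 it was -2.17 ± 0.20 (SE) in males, with a limma adjusted p of 0.019 over all probes, and -1.83 ± 0.20 in females, with an adjusted p of 0.041. Gpc3 was the only member called in this test in either sex, where 0.292% of genes in males and 0.0931% in females were called. Mest and Plagl1 had values below -0.7 in both sexes at an unadjusted p below 0.05 but adjusted p from 0.19 to 0.27, and Cdkn1c had -0.55 in males (limma adjusted p = 0.096). No value is given for Dlk1, whose ratios here include groups not well above background. The male call was lost without either M8/F8 or either M8/M3 array, with values of -2.15 to -2.19, and both calls were lost with ratios from normexp and loess, at -1.66 and -1.72. The female call was also lost with the slides as a block and in 12 of the 14 fits that leave out an array, with values of -1.82 to -1.84.

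Mest, a paternally expressed gene of the hydrolase family that is abundant in growing mesoderm and fat, fell throughout. Its representing probe gave -2.38 and -2.56 on the M8/M3 arrays and -1.82 and -2.14 on the F8/F3 arrays. In M8/M4 it gave -1.45 and -2.04, and in F8/F4 -0.98 and -1.19. The ranges of the 2 sexes lay apart in both pairs of comparisons, with males lower. As fitted, Mest was 5.54-fold lower at 8 than at 3 wk in males (-2.47 ± 0.14, limma adjusted p = 0.00021, n = 2 arrays) and 3.94-fold lower in females (-1.98 ± 0.14, adjusted p = 0.00041). The difference between the sexes in these changes was -0.49 ± 0.20 for 3 to 8 wk and -0.66 ± 0.20 for 4 to 8 wk, with limma adjusted p of 0.26 and 0.21, so it was not called. The other 2 Mest probes fell in all 4 age comparisons as well, with -1.95 and -2.07 in M8/M3. One of them, A_55_P2151868, was also called in M8/F8, at -0.66 ± 0.11 (limma adjusted p = 0.0098), where the representing probe had -0.38 ± 0.14 (adjusted p = 0.14).

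Plagl1, a paternally expressed zinc finger transcription factor that controls a network of imprinted genes, fell by 3.24-fold from 3 to 8 wk in males and 2.66-fold in females. The arrays gave -1.83 and -1.56 in M8/M3 and -1.28 and -1.54 in F8/F3, with a fitted change of -1.70 ± 0.14 (SE, limma adjusted p = 0.00068, n = 2 arrays) and -1.41 ± 0.14 (adjusted p = 0.0013). Both female arrays lay above both male arrays, but narrowly, with the female array at -1.54 close to the male array at -1.56. From 4 to 8 wk Plagl1 fell 1.98-fold in males and 1.62-fold in females, and the latter call was lost without either F8/F4 array, with values of -0.57 and -0.82. The call in M8/M4 was lost without its second array, with a value of -0.83.

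The 4 Plagl1 probes did not give the same result. A_55_P1961968 and A_52_P532456, whose signal was highest, were lower at 8 wk in all 4 age comparisons and differed from each other by less than 1 SE. A_55_P2153251 and A_55_P1961965, both well above background on every array, were called in no comparison and gave 0.23 and 0.44 in M8/M3. All 4 carry the same RefSeq accession. The signals of the first 2 were 12.19 and 12.13 on the log2 scale in M3 liver, against 7.24 and 7.88 for the others. Which part of the transcript each probe meets was not analysed here, and the levels of different probes are not compared as amounts of RNA.

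**Figure D2:**
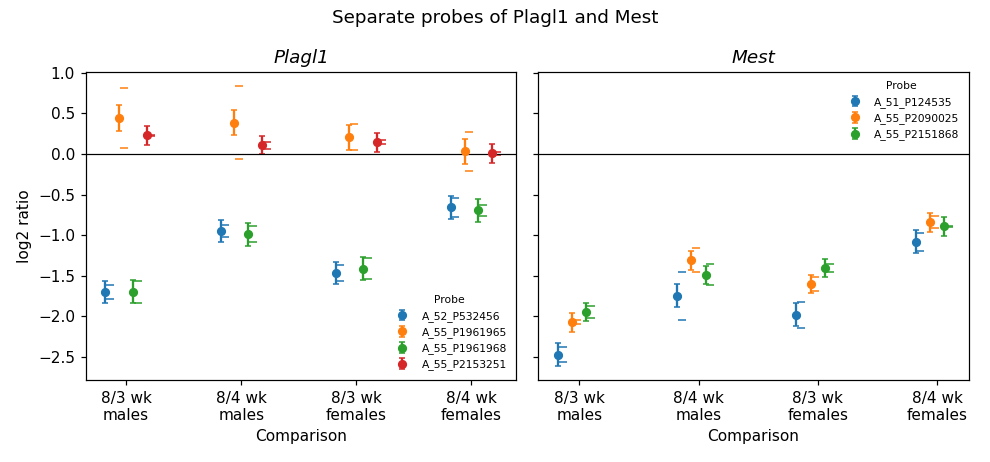
Log2 ratio of 8 wk over younger liver for each separate probe of Plagl1 and Mest, as the fitted mean with whiskers of 1 SE and a short dash for each array. The 3 Mest probes all lie below 0, whereas 2 of the 4 Plagl1 probes stay near or above 0.

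Cdkn1c, which encodes the cyclin-dependent kinase inhibitor p57 and is expressed from the maternal copy, fell more in male than in female liver. The arrays gave -1.68 and -1.46 in M8/M3 and -0.89 and -0.55 in F8/F3, so no female array reached the male range. The fitted change was 2.96-fold in males (-1.57 ± 0.08, limma adjusted p = 0.00013, n = 2 arrays) and 1.65-fold in females (-0.72 ± 0.08, adjusted p = 0.0015). The difference between them was -0.84 ± 0.11 and passed the test (limma adjusted p = 0.011 over all probes), in a test that called 3.35% of genes in either direction. Cdkn1c was the only member called in it. In the same test for 4 to 8 wk 0 of 8 members were called, where 1.32% of genes were. Mest and Cdkn1c had an unadjusted p below 0.05 there, a limit at which the share of all genes was not counted. M8/M3 and F8/F3 were scanned on different days. The same quantity read from the sex comparisons, which were scanned on 1 day, was -0.91 and was also called.

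From 4 to 8 wk Cdkn1c fell 2.02-fold in males, with arrays at -1.01 and -1.03, and in females the arrays gave -0.70 and -0.40. The female change was 1.46-fold, below the 1.5-fold limit, at a limma adjusted p of 0.0044. The sex comparison moved with age. Male over female liver gave 0.15 and 0.18 at 3 wk, -0.29 and -0.33 at 4 wk, and -0.62 and -0.87 at 8 wk, so the groups were nearly level at 3 wk and every later array was lower in males. At 8 wk Cdkn1c was 1.68-fold higher in female liver (-0.75 ± 0.08, limma adjusted p = 0.0014), and at 4 wk the difference of 1.24-fold was under the limit (adjusted p = 0.038). The interaction call was lost without either M8/M3 array or the second F8/F3 array, with values of -0.74 to -0.88, and with ratios from normexp and loess, at -0.57.

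**Figure D3:**
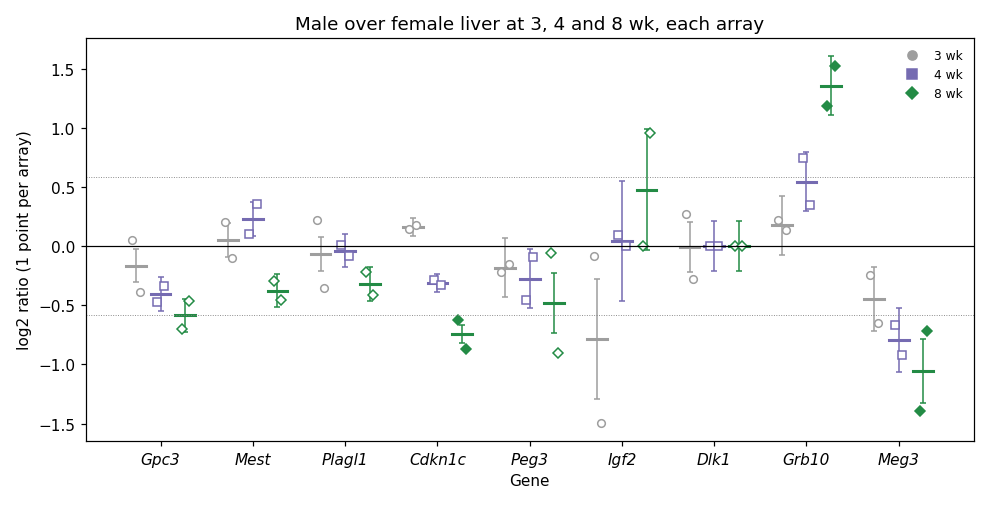
Log2 ratio of male over female liver at 3, 4 and 8 wk for the 9 members, with 1 point per array, a bar at the fitted mean and whiskers of 1 SE. Filled points belong to comparisons that passed the test and the 1.5-fold limit (dotted lines). Cdkn1c and Meg3 go below 0 and Grb10 goes above 0 at 8 wk.

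Grb10, an adaptor that dampens signalling from the insulin and IGF1 receptors and is expressed from the maternal copy in most tissues outside the brain, behaved the other way between the sexes. For male over female liver its arrays gave 0.22 and 0.14 at 3 wk, 0.75 and 0.35 at 4 wk, and 1.19 and 1.53 at 8 wk, and the 8 wk arrays lay above all the others. At 8 wk Grb10 was 2.56-fold higher in male liver (1.36 ± 0.25, limma adjusted p = 0.013, n = 2 arrays), and with ratios from normexp and loess the value was 0.63 and still called. In males its arrays spread around 0 in both age comparisons, at 0.32 and -0.26 in M8/M3 and at -0.21 and 0.17 in M8/M4. In females it was 2.26-fold lower at 8 than at 3 wk, with arrays at -0.64 and -1.71 and a fitted change of -1.18 ± 0.25 (limma adjusted p = 0.023). The F8/F4 arrays gave -0.57 and -0.66 (limma adjusted p = 0.17).

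The difference between the male and female changes of Grb10 from 3 to 8 wk was 1.21 ± 0.35, and it was not called (limma adjusted p = 0.13). The call of the female change was lost without the second F8/F3 array, at -0.66, with the slides taken as a block, with the shared pools in the covariance and with error-weighted averages (-1.09). With ratios from normexp and loess it was -0.64 and called. The call in M8/F8 was lost without either of its arrays, at 1.26 and 1.45. Grb10 had 1 probe.

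Meg3, a maternally expressed noncoding RNA of the Dlk1 region that is often lost in tumours, had values on the female side at every age. Its male over female arrays were at -0.25 and -0.65 at 3 wk, -0.67 and -0.92 at 4 wk, and -1.39 and -0.72 at 8 wk. Only the 8 wk difference passed the test, at 2.08-fold (-1.06 ± 0.27, limma adjusted p = 0.046, n = 2 arrays). It lay near the threshold. It was lost with the replicate number, which marks shared pools, as a block (limma adjusted p = 0.066), with the slides as a block and with error-weighted averages, and 11 of the 14 fits that leave out an array lost it, with a value of -0.59 without the first M8/F8 array. The other Meg3 probes gave -1.18 ± 0.34 (A_52_P196568) and -1.32 ± 0.38 (A_55_P2033407) in M8/F8, with limma adjusted p of 0.068 and 0.070.

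With age, Meg3 gave 1.03 and 0.75 on the F8/F3 arrays, both above 0, and -0.25 and 0.64 on the M8/M3 arrays, which spread to both sides of it. Neither comparison was called (limma adjusted p = 0.082 and 0.82). Of the 9 members Meg3 alone had a positive fitted value in F8/F3, at 0.89 ± 0.27. The difference between the male and female changes was -0.69 ± 0.39 (limma adjusted p = 0.41).

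Peg3, a paternally expressed zinc finger protein, fell by 1.97-fold from 3 to 8 wk in males, with arrays at -0.98 and -0.98 (-0.98 ± 0.25, limma adjusted p = 0.044, n = 2 arrays). In F8/F3 the arrays gave -1.005 and -0.405, in M8/M4 -0.59 and -1.12 and in F8/F4 -0.92 and -0.31. Every array was below 0, but these 3 comparisons were not called, at limma adjusted p of 0.12, 0.071 and 0.17 in that order. The male call lay near the threshold. It was lost with the replicate number as a block (limma adjusted p = 0.067), with the slides as a block, with ratios from normexp and loess (-0.67) and in 10 of the 14 fits that leave out an array, at -0.89 to -1.08. A second probe, A_55_P2163319, was called in M8/M3 as well, where it was not well above background in 8 wk males on either array.

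Igf2, the fetal growth factor of the insulin family, and Dlk1, a membrane protein of the Notch ligand family that marks liver progenitors, were near background at 8 wk. Igf2 was well above background on all 4 arrays with M3 liver and all 4 with F3 liver, on 1 of 4 with M4 and 1 of 4 with F4, on 0 of 6 with M8 and on 2 of 6 with F8. Dlk1 was well above background on 2 of 4 arrays at 3 wk, 1 of 4 at 4 wk and 2 of 6 at 8 wk in each sex. The other 7 members were well above background on all 6 arrays of M8 and all 6 of F8 liver.

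For Igf2 the M8/M3 arrays gave -1.93 and -2.56 and the fitted value was -2.25 ± 0.51 (limma adjusted p = 0.029), a call lost in 6 of the 14 fits that leave out an array. Since 8 wk male liver was not well above background, neither a fold nor a bound is given for the amount. Log2 signals on the M8/M3 arrays were 6.87 for 3 wk and 6.63 for 8 wk liver, with background corrected by normexp with an offset of 50. The 8 wk value is the probe's own signal, which lay above the lowest signal well above background on both arrays. The F8/F3 arrays gave -0.29 and -2.16, so wide apart that the fitted -1.22 ± 0.51 was not called (limma adjusted p = 0.18). The arrays of M3/F3 were also apart, at -0.08 and -1.49. The second pool of F3 stood out in signal, at 8.00 on the log2 scale against 6.95 for the first pool.

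For Dlk1 the M8/M3 arrays gave -0.91 and -0.99 and the F8/F3 arrays -1.93 and -0.93. Both comparisons were called, at -0.95 ± 0.21 (limma adjusted p = 0.027) and -1.43 ± 0.21 (adjusted p = 0.0058), with 8 wk liver not well above background, and the male call was lost in 4 of the 14 fits that leave out an array and with the slides as a block. Both calls were lost with the shared pools in the covariance and with error-weighted averages. The signals on these arrays were 6.90 at 3 wk and 6.82 at 8 wk in males and 6.86 and 6.63 in females, and over all arrays of the groups they were 6.84 and 6.70 in males and 6.81 and 6.67 in females, so no bound is given for the fold. In M8/M4 and F8/F4 the same probe was well above background in 8 wk liver on both arrays and its values were 0.32 and 0.31, on the other side of 0 and not called. Its ratios in M4/F4 and M8/F8 were exactly 0, on arrays where neither channel was well above background. A second Dlk1 probe was well above background in 1 channel on 1 array only. With ratios from normexp and loess the M8/M3 and F8/F3 values shrank to -0.08 and -0.23 for Dlk1 and the M8/M3 value to -0.24 for Igf2, and none of these was called.

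**Figure D4:**
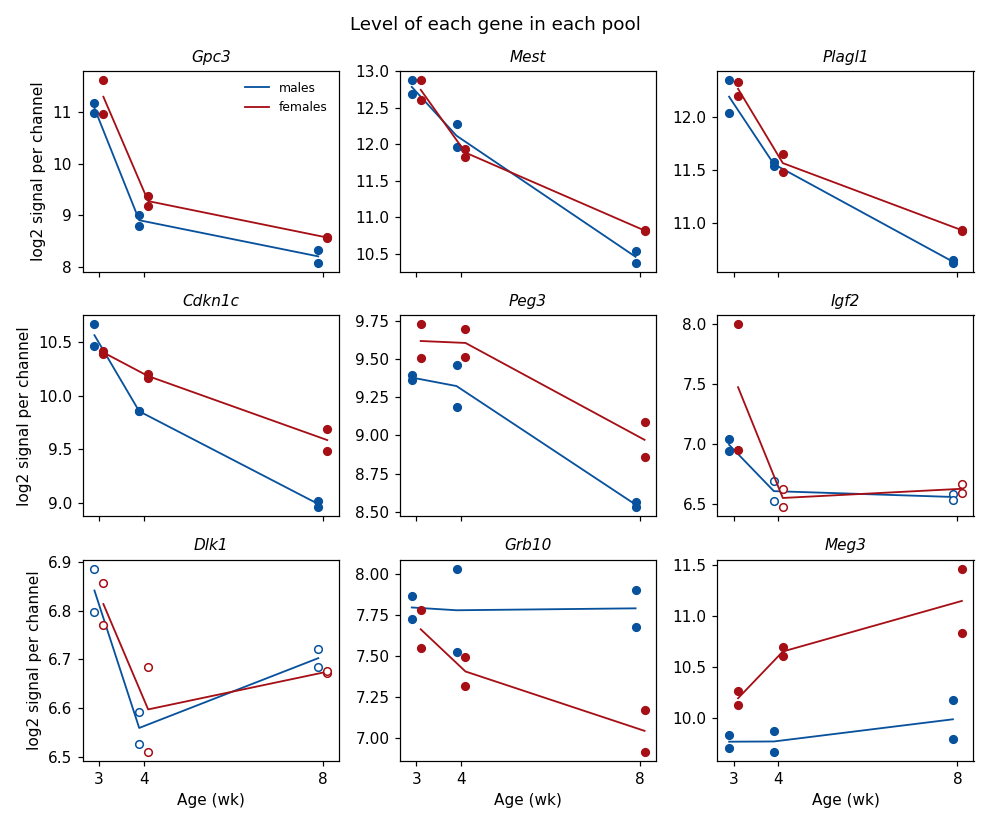
Signal of each member in each pool on the log2 scale against age in weeks, with 1 point per pool (2 pools per group), lines through the group means and males in blue, females in red. Filled points mark groups well above background on every array that held them. For Gpc3, Mest, Plagl1 and Cdkn1c each older group has a lower mean in both sexes, Igf2 and Dlk1 lie at the bottom of the scale after 3 wk, and the axes differ between genes.

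The signals of the channels, taken apart and averaged per pool, gave the order of the 6 groups. Gpc3 signal went from 11.30 ± 0.46 (SD, n = 2 pools) in F3 and 11.08 ± 0.14 in M3 to 9.27 ± 0.13 in F4, 8.90 ± 0.15 in M4, 8.56 ± 0.03 in F8 and 8.20 ± 0.18 in M8. The 3 wk groups overlapped with each other and lay above the rest, and at 4 and 8 wk the females were above the males. Mest ran from 12.78 ± 0.13 in M3 and 12.74 ± 0.19 in F3, through 12.11 ± 0.23 in M4 and 11.88 ± 0.08 in F4, to 10.82 ± 0.02 in F8 and 10.46 ± 0.12 in M8. At 3 wk the sexes overlapped, and at 8 wk the male pools were below both female pools.

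Plagl1 followed the order F3, M3, F4, M4, F8, M8, with 12.26 ± 0.09 in F3 and 10.64 ± 0.02 in M8. Its 4 wk groups differed by less than their spread. Cdkn1c ran from 10.57 ± 0.14 in M3 and 10.41 ± 0.02 in F3 through 10.18 ± 0.02 in F4, 9.86 ± 0.00 in M4 and 9.59 ± 0.14 in F8 to 8.99 ± 0.04 in M8. Except at 3 wk, the female pools were above the male pools of the same age. Peg3 had its highest signal in F3 (9.62 ± 0.15) and F4 (9.60 ± 0.13), which did not differ beyond their spread, and its lowest in M8 (8.55 ± 0.03).

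Grb10 had a signal in males of 7.79 ± 0.10, 7.78 ± 0.36 and 7.79 ± 0.16 at 3, 4 and 8 wk, and these 3 did not differ beyond their spread. In females it had 7.66 ± 0.16, 7.40 ± 0.13 and 7.04 ± 0.18, of which only the change from 3 to 8 wk was called, and at 8 wk both female pools were below both male pools. Meg3 had 9.77 ± 0.09, 9.77 ± 0.14 and 9.99 ± 0.27 in males and 10.20 ± 0.10, 10.65 ± 0.06 and 11.15 ± 0.44 in females, and no change of it with age was called. The order of the group means was the same with processed signals scaled to each array's upper quartile for Gpc3, Mest, Plagl1, Cdkn1c, Peg3 and Meg3, whereas for Grb10 the 3 male groups changed places among themselves, and Igf2 and Dlk1 changed order.

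Seen over the 14 turned array ratios, the genes outside the set most like each member by Pearson's r were found among 13020 genes with signal well above background in at least 1 channel of every array. They are given as a description, since the arrays share pools. Mest was most like Col5a1, Ap1s3 and Fkbp10, with r of 0.99 each, of which Col5a1 is a fibrillar collagen and Fkbp10 a chaperone of collagen in the endoplasmic reticulum. Plagl1 was most like Sgce, another paternally expressed gene, with r = 0.98, followed by Matn2 and Snord123. Gpc3 was most like Tcp1 and Cct7, subunits of a cytosolic chaperonin (r = 0.97 and 0.96), and Calml4.

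Cdkn1c was most like Bsg, Lysmd2 and Tgfbi, with r from 0.96 to 0.98. Grb10 was most like Zkscan1, Sec61g and Ankrd52, and Meg3 was most like Coro7, Olfr1443 and Cntrl (r from 0.98 to 0.99). Peg3 came with Pip4k2b, Clptm1l and Septin9 at r of 0.93 to 0.95. Itpripl2 and Tlr4 were like Igf2 with r of 0.85 and 0.84, and the genes most like Dlk1 were Camp, a neutrophil granule gene, S100a8, another neutrophil gene, and Urb1, with r of 0.85 to 0.91. Dlk1 was not well above background on every array of any group, and neither was Igf2 at 4 or 8 wk. The Dlk1 ratios in M4/F4 and M8/F8 were exactly 0. Nothing is drawn from the genes ranked as like Igf2 or Dlk1. Among the members themselves Mest and Plagl1 had r = 0.97, Plagl1 and Gpc3 0.94, and Mest and Gpc3 0.89, while Meg3 had r below 0 with each of the other 8.

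The other imprinted genes on the arrays did not fall together. Of 55 tested in M8/M3, 7 were lower and 4 higher (12.7% and 7.27%), and of 54 tested in F8/F3, 5 were lower and 3 higher (9.26% and 5.56%), shares close to those of all genes given above. Their median log2 ratio was -0.12 for males and 0.03 for females. From 4 to 8 wk 2 were lower and 2 higher of 54 in males, and 2 lower and 1 higher of 53 in females. Of those called in both sexes from 3 to 8 wk, Slc38a4, an amino acid transporter of hepatocytes, rose by 1.24 ± 0.15 in males and 1.15 ± 0.15 in females on the log2 scale. Herc3 rose by 0.78 and 0.65. Kcnq1ot1, the noncoding RNA that silences the domain holding Cdkn1c, was lower at 8 wk, with -0.84 in males and -1.07 in females. Sgce had -0.77 and -0.73, and Gatm, an enzyme of creatine synthesis, had -0.78 and -0.61.

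At 8 wk 5 of 48 other imprinted genes tested differed between the sexes, 3 of them higher in female and 2 higher in male liver (6.25% and 4.17%, against 3.74% and 2.66% of all genes). Slc22a3, an organic cation transporter, was higher in females in all 3 sex comparisons, at -0.63 for 3 wk, -0.63 for 4 wk and -1.17 ± 0.15 for 8 wk (limma adjusted p = 0.034, 0.035 and 0.0033). Sfmbt2 (-1.31 ± 0.28) and Magel2 (-0.59 ± 0.06) were also higher in females at 8 wk. Phlda2, a maternally expressed growth restraint gene of the same domain as Cdkn1c, was higher in males, at 1.66 ± 0.31 (limma adjusted p = 0.014), and in females it was lower at 8 than at 3 wk, at -1.72. Phlda2 and Grb10 thus had the same directions in M8/F8 and F8/F3. Th, tyrosine hydroxylase, was higher in males at 1.30 ± 0.13.

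Genes of the IGF axis and factors known to act on these loci were measured beside the members. Of 22 tested, 4 were lower and 3 higher in M8/M3 (18.2% and 13.6%, against 10% and 7.81% of all genes) and 4 lower and 0 higher in F8/F3 (18.2% and 0%, against 6.67% and 5.08%). Uhrf1, which keeps DNA methylation in place at replication, fell with age, with -3.79 ± 0.20 in M8/M3 and -3.26 ± 0.20 in F8/F3. Igf2bp3, a fetal RNA-binding protein that binds Igf2 transcripts, had -3.42 ± 0.34 and -2.25 ± 0.34 and was higher in female liver at 8 wk, at -1.28 ± 0.34. Hmga2, a chromatin protein of growing tissue, had -0.79 and -0.75. Igfals, a carrier protein of circulating IGFs, was higher in female liver at 8 wk, at -0.61 ± 0.09 (limma adjusted p = 0.0060). Igf1, the main growth factor that liver releases under growth hormone and named here after its values were seen, had -0.54 ± 0.04 in M8/M3 and 0.06 ± 0.04 in F8/F3, neither called, and the difference between them was called, at -0.60 ± 0.05 (limma adjusted p = 0.0034).

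Markers of some other cells moved with age as well. Among all genes 10% were lower and 7.81% higher in M8/M3, and 6.67% and 5.08% in F8/F3. Of 18 mesenchymal markers, 9 were lower in M8/M3 and 7 of 17 tested in F8/F3, and none was higher. Of 9 endothelial markers 1 was lower in each comparison, and of 4 lymphocyte markers tested 0 were called. Of 6 bile duct markers tested, 2 were lower and 1 higher in M8/M3, and 1 lower and 1 higher in F8/F3. In M8/M3 and F8/F3 Col1a1 had -2.25 and -1.93, and Col3a1 had -2.19 and -1.70. These lay far below the medians of the mesenchymal markers tested, -0.54 in M8/M3 and -0.35 in F8/F3. In all, 9 and 10 of the markers were not called, among them Dcn at -0.25 and -0.23. The summed mesenchymal signal was 212714 to 246953 in M3 and 214296 to 231050 in F3 pools, against 105567 to 122117 in M8 and 128869 to 130267 in F8 pools, and each of the 18 was well above background on some array of every group. All 10 mitosis markers were lower in both sexes, with a summed signal of 18572 to 30690 in the 3 wk pools and 2488 to 2903 in the 8 wk pools. Of the erythroid markers Epb42 and Rhag were not well above background on any array at 8 wk, while 3 of 6 tested were lower and 1 (Alas2, an enzyme of heme synthesis) higher in M8/M3 and 4 of 7 were lower in F8/F3. The summed erythroid signal went the other way in males, from 7937 to 9691 in M3 to 18445 to 21947 in M8 pools, and overlapped in females, at 6396 to 7164 in F3 and 4747 to 7269 in F8 pools. At 8 wk 4 of 6 macrophage markers were higher in female liver, where 3.74% of all genes were, as were Meg3 and Cdkn1c. Their summed signal was 31795 to 39728 in M8 and 50112 to 53195 in F8 pools, against 51134 to 53336 in M3 and 60332 to 60883 in F3 pools. With age 2 of 6 were lower in M8/M3 and 1 of 6 in F8/F3, with medians of -0.44 and -0.18. Of the 9 hepatocyte markers, 1 was lower (Alb, serum albumin, at -0.71 ± 0.10, limma adjusted p = 0.0055) and 2 were higher (Serpina1c and Tdo2) in M8/M3, none of the 9 exceeded 1.5-fold in F8/F3, and the summed signal overlapped between ages and sexes, at 1189830 to 1791030. The part these cells have in the changes of the members was not tested.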

How the data were processed

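Liver RNA pools of male and female CD-1 mice were compared on 14 two-colour Agilent arrays read with Feature Extraction 10.7.1.1. The authors deposited, per the file headers, a log10 ratio of red over green for each spot with its error, after background subtraction and dye normalization, and the intensity of each channel. The series' own value table holds the same log10 ratios (largest difference 0). Spots that the scanner software marked as nonuniform (0 to 10 per array) and control spots were left out, repeats of a probe were averaged, and ratios were turned to log2 of male over female or of 8 wk over younger. Direction came from the dyes in the labels. One statement on dye use in the study's methods gives the opposite dye for an example array, and the Y-linked genes and Xist bore out the labels.

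Of 39429 probes, 26055 were named through RefSeq accessions in a table of build GRCm38.p6. A fit with limma 3.58.1 in R 4.3.3 held 7 comparisons and 1 dye term (6 residual degrees of freedom), with the empirical Bayes test and Benjamini-Hochberg adjustment over all probes and comparisons, or over all probes for differences between comparisons. The replicate number pairs the arrays: around the loops of comparisons that share pools, replicate differences closed with r of 0.91 at 3 wk and 0.90 at 4 wk, although they correlated over 0.1 in 11 of 21 pairs of comparisons. The probe with the highest mean signal represented a gene. Other probes are named where calls differ. From the other imprinted genes and the IGF axis list, the 5 with the largest mean change from 3 to 8 wk among those called in both sexes, and those called in M8/F8, are named. For each called member the 3 genes with the highest Pearson's r are named, except for an item not reported here. Levels are log2 intensity after normexp (offset 50), loess and Aquantile, averaged per pool. Precision is limited by 2 arrays per comparison. The members and lists were chosen with earlier results of these data known. The fit was also run on simulated data, with an outcome not given here. The simulated arrays had independent errors and no shared pools, so that run does not bear on the dependence between the real arrays. Alternatives are given at the end.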

Additional observations from a re-analysis of the deposited data

Results flagged for a closer look

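With 2 arrays per comparison, no test for single values that stand apart within a group was run. Of the members, the other imprinted genes and the IGF axis list, 5 genes changed with age by different amounts in the 2 sexes, by a test of the difference itself. The test for 3 to 8 wk took in 9 members, 56 other imprinted genes and 22 IGF axis genes, and called 3.35% of all genes. The test for 4 to 8 wk took in 8, 54 and 22, and called 1.32% of all genes. For 3 to 8 wk, the male minus female change was -0.84 for Cdkn1c, which fell more in males, and -0.73 for Magel2 and -0.70 for Igfals, which fell in males with values near 0 in females. It was -0.60 for Igf1 (limma adjusted p = 0.0034), whose own changes in either sex were under 1.5-fold. It was 1.25 for Th, which rose by 1.80 in males and had 0.55 in females (limma adjusted p = 0.033, under the 1.5-fold limit), and for Th the difference was 1.45 for 4 to 8 wk. The differences for Cdkn1c, Magel2, Igfals and Th (3 to 8 and 4 to 8 wk) had limma adjusted p of 0.011, 0.0081, 0.034, 0.017 and 0.020, and the arrays of the 2 sexes were scanned on different days for 3 to 8 wk but on the same day for 4 to 8 wk.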

How the results depend on the processing

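Of the values of single members under the alternatives, 2100 kept their direction and their side of the threshold, 77 lost a call, 29 gained one and the 53 that changed sign were not called, and no called value reversed. In the 7 comparisons Mest, Gpc3 and Cdkn1c kept all their calls under each alternative fit run. With normexp and loess ratios, 1 member was called in M4/F4, 4 in M8/M3, and 0 in the difference between sexes for 3 to 8 wk and in both changes from 3 to 4 wk. With 6 group means in place of 7 comparisons, 2 were called in M4/F4, 5 in F8/F4, 2 and 1 in the differences between sexes for 3 to 8 and 4 to 8 wk, and 4 in each sex from 3 to 4 wk. In M4/F4, 1 was called with shared pools in the covariance, 1 with error-weighted averages and 1 without a fold threshold, and 0 were called in females from 3 to 4 wk with the slide as a block. Leaving out 1 array at a time gave 0 to 1 calls in M3/F3 (1, Igf2, without its first array), 1 to 3 in M8/F8 (1 without its first array), 4 to 6 in M8/M3 (4 without either of its arrays), 0 to 1 in the difference for 3 to 8 wk and in males from 3 to 4 wk, and 0 to 2 in females from 3 to 4 wk. With a replicate block, since the number marks shared pools, 2 members were called in M8/F8 and 6 in M8/M3, where Meg3 and Peg3 were lost, and it changed no other call in the 7 comparisons. A fit on bright probes only, chosen after seeing the data, called 7 in F8/F3 and 5 in M8/M4. Igf2 and Dlk1 are limited by signal near background. The cause of these changes was not tested.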
